A study of Mus musculus with 2 samples.

Results

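Atf4 and 8 genes known as its targets in amino acid stress (Asns, Psat1, Phgdh, Chac1, Ddit3, Trib3, Sesn2 and Vldlr) were examined in mouse embryoid bodies given FGF10 and in embryoid bodies without it. The members are the 24 probe sets, of 45101 on each array, whose platform annotation names 1 of these 9 genes and no other gene. The FGF10 sample was made from CGR8 embryonic stem cells of strain 129, aggregated in hanging drops and placed on day 2 in differentiation medium with recombinant FGF10, a secreted fibroblast growth factor, at 100 ng/ml. The control sample had the same line, strain, hanging drops and medium with no added agent. The stem cells of both had been grown feeder-free with serum and leukemia inhibitory factor (LIF). The labels place RNA extraction on day 2, whereas the design text says that 2-day embryoid bodies were treated and RNA taken 24 h after that.

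There was 1 array per group, so no test could be made, no p-value is given and every ratio describes this pair of arrays. CGR8 is 1 cell line, and the labels do not say how many embryoid bodies went into a sample. The values are MAS5 signals, the linear output of the Affymetrix software, with a median of 78.3 on the FGF10 array and 75.9 on the control array over all probe sets. Ratios below are the log2 signal in the FGF10 sample minus that in the control. They were shifted by a constant so that the median over all probe sets past the filter described next is 0. A probe set passed the filter on low values when its mean signal over both arrays was at least 76.35, the median of all probe sets other than chip controls. A gene took the ratio of its brightest passing probe set, and a difference was counted at 1.5-fold, a log2 ratio of 0.585 in either direction. All 6 embryonic stem cell and epiblast markers passed the filter (summed signal 36129 in the FGF10 sample, against 34693 in the control), among them Pou5f1 (ratio 0.07), and 1 of the 6, Utf1, was past 1.5-fold lower (-0.73). All 5 primitive streak markers were past 1.5-fold higher in the FGF10 sample (summed signal 13027, against 2606 in the control). On their brightest probe sets, 4 of 5 visceral endoderm markers were past 1.5-fold lower (summed signal 5422, against 8065 in the control). Of these 4, Hnf4a had passing probe sets that disagree in sign, with ratios of -0.90, 0.15 and -0.36. Of 5 fibroblast or feeder markers only Thy1 passed the filter (ratio -0.61), with Col1a1 at signals of 5.7 to 9.4. Of 3 blood markers, 2 had a probe set that names that gene alone, and neither of these 2 passed the filter. The part of these cell types in the ratios below was not tested, and in aggregates of mixed cells a smaller number of cells of a type cannot be told apart from less RNA per cell.

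ATF4 is a bZIP transcription factor whose protein is made more efficiently when the translation factor eIF2 is phosphorylated, as happens through the kinase GCN2 when amino acids run short and through PERK when proteins misfold in the endoplasmic reticulum. The factor then raises genes for amino acid synthesis, amino acid import and tRNA charging, along with regulators that limit growth. Because much of the control acts on translation, the amount of Atf4 mRNA is not a measure of ATF4 protein, and protein was not measured here.

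Of the 9 members, 1 was at least 1.5-fold higher in the FGF10 sample, 0 were 1.5-fold lower and 8 lay within 1.5-fold. Across all 11122 genes that passed the filter, 5.41% were 1.5-fold or more above the control and 4.86% were 1.5-fold or more below it. The higher member was Vldlr, the receptor for very low density lipoprotein and reelin, at 3.42-fold. The other 8 members ranged in log2 ratio from -0.48 for Sesn2 to 0.43 for Trib3. There were 6 members with a negative ratio and 3 with a positive one, and 53.5% of all genes that passed the filter had a negative ratio. The median over the 9 members was -0.30, against -0.03 over all genes, and it was -0.30 without Vldlr as well. All 9 genes had at least 1 passing probe set, and 18 of the 24 probe sets passed. Of these 18, 13 had a negative ratio and 5 a positive one. None of the 16 passing probe sets of genes other than Vldlr was past 1.5-fold in either direction.

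**Figure D1:**
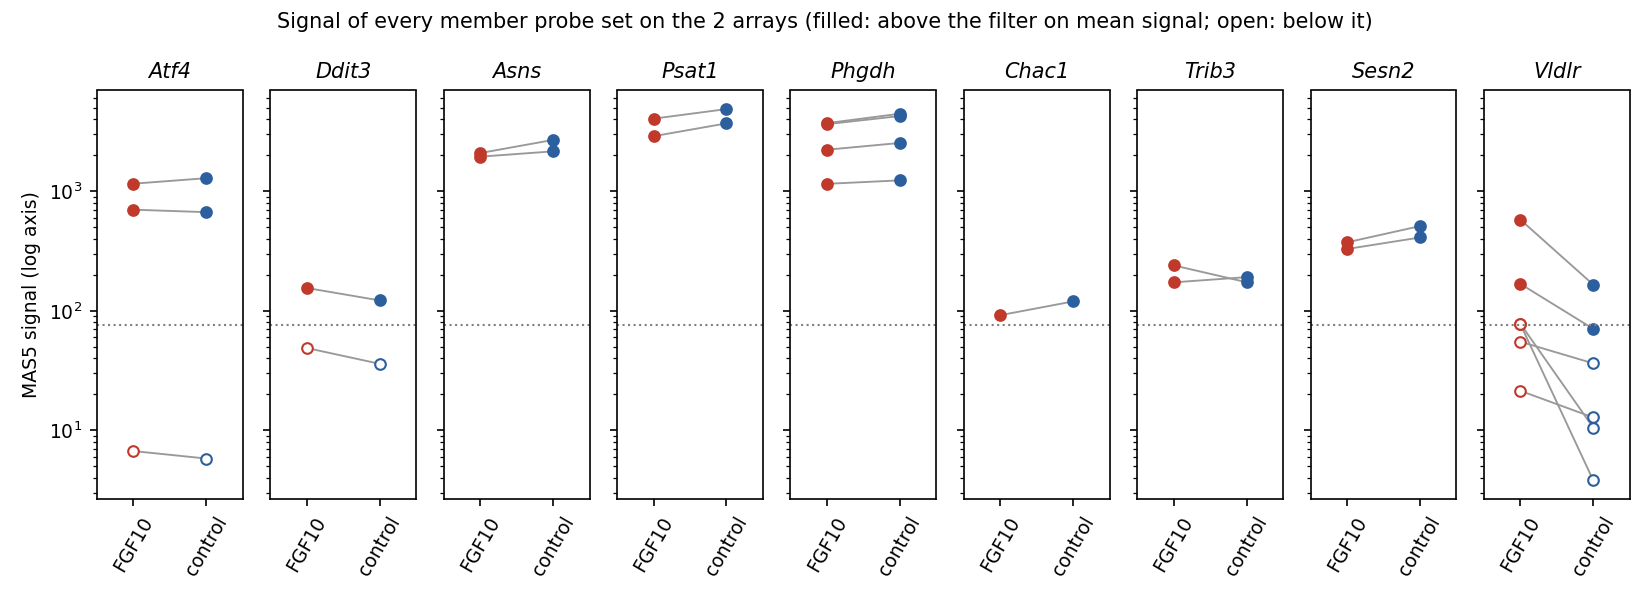
MAS5 signal (log axis) of each of the 24 member probe sets on the FGF10 array (red, left) and the control array (blue, right), with a line joining the signals of a probe set. Filled points passed the filter on mean signal (dotted line, 76.35) and open points did not; the Vldlr lines all run down toward the control array, while the lines of Asns, Psat1, Phgdh, Chac1 and Sesn2 run up.

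ATF4 binds, as a dimer with C/EBP family proteins, to composite elements that join parts of a C/EBP site and an ATF site. RefSeq promoter windows of assembly GRCm38.p6, from 250 bases before to 50 bases after an annotated transcription start, were found for all 9 members (11 windows, with Psat1 and Vldlr having 2 each). The letters TGATGNAA, the common core of such elements, were searched on both strands. They occurred once in 1 window each of Asns, Chac1, Trib3 and Vldlr, and in no window of the other 5 members. Of all 32851 RefSeq windows, 3.97% hold these letters. Counted by gene, the share was 4.51% of 27025 genes, and 2.57% of the 9034 genes that passed the filter and have a window. The members other than Atf4 were taken as known ATF4 targets, so these shares are background only. The 4 matches are shown because the genes that carry them have ratios on both sides of 0 on their brightest probe sets. The 2 Trib3 probe sets disagree in sign, and the Chac1 ratio is smaller than the spread at its signal. Each is printed 5′ to 3′ on the strand where it reads TGATGNAA, with the 8 matching bases in capitals and 10 bases on either side.
Asns: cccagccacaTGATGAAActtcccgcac
Chac1: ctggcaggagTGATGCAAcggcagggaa
Trib3: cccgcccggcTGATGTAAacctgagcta
Vldlr: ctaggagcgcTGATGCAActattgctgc

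The Asns match lies at chr6:7693215-7693242, minus strand, with its 8 bases from 23 to 16 bases before the start of transcription and on the strand of the gene. The Chac1 match, at chr2:119351039-119351066, minus strand, runs from 193 to 186 bases before the start, on the strand opposite to the gene. The Trib3 match, at chr2:152344029-152344056, plus strand, lies from 15 to 22 bases after the start, also opposite to the gene. The Vldlr match, at chr19:27216810-27216837, minus strand, runs from 200 to 193 bases before the second of its listed starts and is opposite to the gene. Chac1 and Vldlr thus share the same 8 bases at a like distance from a start. Their gene ratios were -0.42 and 1.78. That of Chac1 was smaller than the standard deviation of 0.57 among probe sets of like signal, so it gives no clear direction. Any part of the match in either ratio was not tested. A match is a description of the letters and not evidence of binding, and a window without one says nothing of the factor. The 250 bases before the start of Asns (chr6:7693210-7693459, minus strand) and before the second start of Vldlr (chr19:27216770-27217019, plus strand) are given on the strand of each gene, the match in capitals, as the setting of the 2 elements in a gene with a lower and a gene with a higher signal.
Asns: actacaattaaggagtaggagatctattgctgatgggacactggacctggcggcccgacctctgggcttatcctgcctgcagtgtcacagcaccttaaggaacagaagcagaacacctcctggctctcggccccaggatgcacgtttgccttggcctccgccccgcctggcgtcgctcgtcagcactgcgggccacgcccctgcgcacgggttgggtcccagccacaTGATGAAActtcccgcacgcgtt
Vldlr: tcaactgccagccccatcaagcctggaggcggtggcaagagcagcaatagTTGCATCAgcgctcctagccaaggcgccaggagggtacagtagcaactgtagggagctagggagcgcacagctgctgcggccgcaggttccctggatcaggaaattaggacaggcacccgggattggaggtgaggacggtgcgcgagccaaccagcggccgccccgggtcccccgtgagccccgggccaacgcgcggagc

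The transcription factors of the group, Atf4 and Ddit3, were within 1.5-fold on the arrays. The brightest Atf4 probe set (1448135_at) had a signal of 1158.4 in the FGF10 sample and 1288.1 in the control, a log2 ratio of -0.19. The second (1438992_x_at) had 701.8 in the FGF10 sample and 669.1 in the control, a ratio of 0.03. The probe sets disagree in sign, so these arrays give no direction for Atf4. The remaining Atf4 probe set read 6.7 in the FGF10 sample and 5.8 in the control, far below the filter.

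Ddit3 encodes CHOP, a C/EBP relative that ATF4 induces and that dimerises with other bZIP proteins. Its brightest probe set (1417516_at) had a signal of 155.2 in the FGF10 sample and 122.1 in the control, a ratio of 0.31. Its other probe set, below the filter, had 48.8 in the FGF10 sample and 36 in the control. The passing Ddit3 probe set was dim and somewhat higher in the FGF10 sample, within 1.5-fold. It stood at the 71.25th percentile of the 1000 probe sets nearest in signal, whose log2 ratios had a standard deviation of 0.49. The other was under the filter value on both arrays and lends no support to a direction.

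The members that encode metabolic enzymes were all lower in the FGF10 sample by less than 1.5-fold. All 9 of their passing probe sets had a negative ratio, from -0.42 to -0.13 with a median of -0.30. These 9 read only 4 genes, and 4 of them read Phgdh, so they are not 9 separate observations. Over all genes that passed the filter, 53.5% had a negative ratio. Asns, which makes asparagine from aspartate and glutamine, had signals of 2089.4 in the FGF10 sample and 2691.6 in the control on its brighter probe set (1451095_at), a ratio of -0.40. On its other probe set it had 1949.1 in the FGF10 sample and 2159.7 in the control, a ratio of -0.18. Both probe sets of Asns point the same way and differ from each other by about the size of the smaller ratio.

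Phgdh and Psat1 encode the enzymes of the first steps of serine synthesis from a glycolytic intermediate. Psat1, the aminotransferase, had signals of 4054.6 in the FGF10 sample and 4878.1 in the control on one probe set (ratio -0.30), and 2892.4 in the FGF10 sample and 3702.6 in the control on the other (-0.39). Phgdh, the dehydrogenase, is read by 4 probe sets. Their signals were 3719, 3648.9, 2229 and 1155 in the FGF10 sample, against 4459.3, 4264.5, 2539.2 and 1234.8 in the control in the same order. The 4 ratios were -0.30, -0.26, -0.22 and -0.13. Every Phgdh and Psat1 probe set was therefore lower in the FGF10 sample, each by less than 1.5-fold. All 4 Phgdh probe sets are of the _x_at type, whose probes may also bind other transcripts. The annotation lists 2 more probe sets under Phgdh together with a predicted gene, which the selection leaves out. They had signals of 1954.8 and 1232.2 in the FGF10 sample, against 2442.5 and 1556.8 in the control, with ratios of -0.36 and -0.37.

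Probe sets about as bright as those of Asns, Psat1 and Phgdh had a median ratio a little below 0. The median over all passing probe sets was set to 0. Among the 1000 passing probe sets nearest in mean signal to the brightest probe set of Phgdh, the median ratio was -0.10, and for Psat1 it was -0.11. For Asns the same median was -0.04. Within those 1000, the brightest probe set of Psat1 stood at the 15.8th percentile, that of Phgdh at the 17.4th and that of Asns at the 7.45th. After loess correction for signal, the Asns, Psat1 and Phgdh ratios were -0.35, -0.20 and -0.21.

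Chac1, a cytosolic enzyme that degrades glutathione, has 1 probe set (1451382_at), with a signal of 91.9 in the FGF10 sample and 119.8 in the control, a ratio of -0.42. This is close to the filter value, where ratios scatter widely. The 1000 probe sets nearest in signal had a standard deviation of 0.57 in log2 ratio, and Chac1 stood at the 17.9th percentile among them. Its ratio was smaller than that spread.

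**Figure D2:**
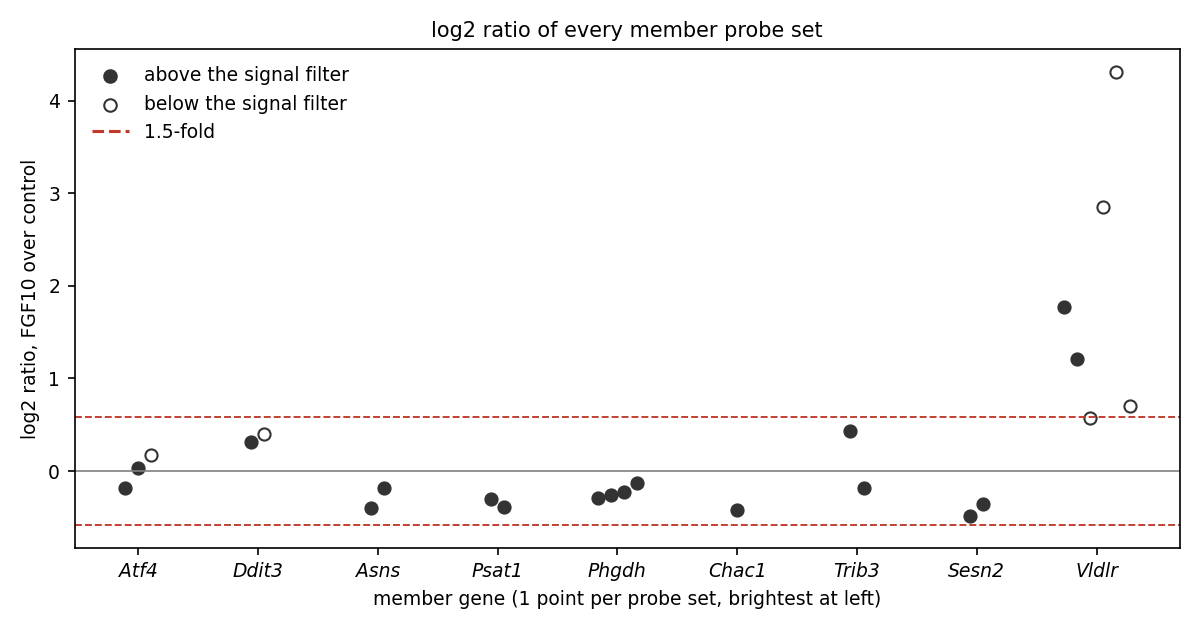
log2 ratio (FGF10 over control) of every probe set of the 9 members, in order of decreasing signal from left to right within a gene; dashed lines mark 1.5-fold. Filled points passed the signal filter, and only those of Vldlr (1.78 and 1.22) lie outside the dashed lines.

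The regulators of the group are Trib3 and Sesn2, both within 1.5-fold. Trib3 is a pseudokinase that ATF4 induces and that in turn restrains ATF4 activity. Its brighter probe set (1456225_x_at) had a signal of 240 in the FGF10 sample and 173.4 in the control, a ratio of 0.43. Its other probe set (1426065_a_at) had 173 in the FGF10 sample and 191.3 in the control, a ratio of -0.18. The probe sets disagree in sign, and without the _x_at type the ratio of Trib3 was -0.19, so no direction can be given for it.

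Sesn2 encodes sestrin 2, a leucine-binding inhibitor of mTORC1 signalling that stress factors including ATF4 and p53 induce. Its brighter probe set (1451599_at) had a signal of 374.1 in the FGF10 sample and 511.2 in the control. The other (1425139_at) had 329 in the FGF10 sample and 410.7 in the control. The ratios were -0.48 and -0.35, at the 5.55th and 11.9th percentiles of probe sets of like signal. Sesn2 had the lowest ratio of the 9 members, 1.40-fold lower in the FGF10 sample, and did not reach 1.5-fold.

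Vldlr binds apolipoprotein E-containing particles and, in the developing brain, reelin, and it is known to be induced by ATF4 signalling and by hypoxia. Its brightest probe set (1434465_x_at) had a signal of 579.4 in the FGF10 sample and 165.3 in the control, a ratio of 1.78. The second (1417900_a_at) had 167.9 in the FGF10 sample and 70.6 in the control, a ratio of 1.22, or 1.10 with the control signal raised to the filter value. Both probe sets were past 2-fold, as were 1.32% of all genes in the upward direction, and Vldlr ranked 28 from the top of 11122 genes by ratio. Its ratios stood at the 99.5th and 98.8th percentiles of the 1000 probe sets nearest in signal.

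The other Vldlr probe sets, 4 in number, were below the filter. Their signals were 55.1, 77.9, 77.3 and 21.4 in the FGF10 sample, against 36.3, 10.5, 3.8 and 12.8 in the control in the same order. The signal of all 6 Vldlr probe sets was thus higher in the FGF10 sample, but the 4 below the filter lend no support to a direction. The ratios of these 4 were 0.57, 2.86, 4.31 and 0.71. None of them has a size that can be read, since with signals under 76.35 raised to that value they were -0.03, -0.01, -0.02 and -0.03. Only the brightest Vldlr probe set had signals above the filter value on both arrays.

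**Figure D3:**
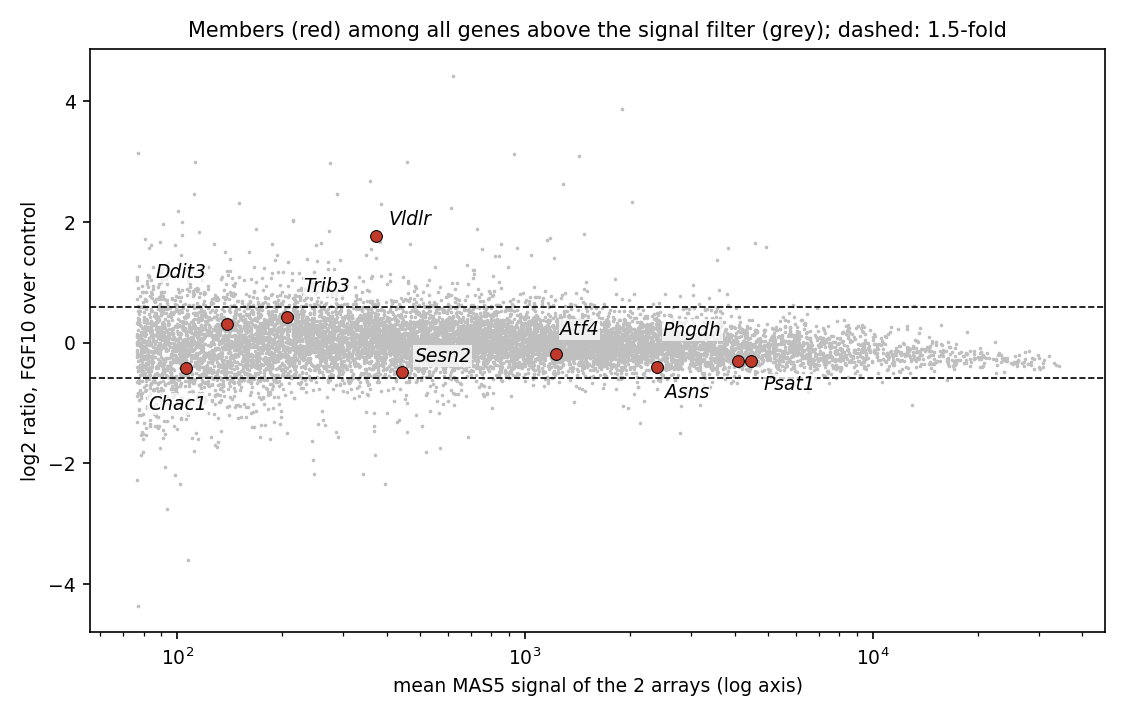
Mean MAS5 signal of both arrays (log axis) against log2 ratio (FGF10 over control) for the 11122 genes that passed the filter (grey) and the 9 members (red, labelled). Vldlr, at 1.78, is the only member outside the dashed lines at 1.5-fold, and the 3 brightest members, Psat1, Phgdh and Asns, lie just below 0.

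Genes that act around ATF4 were read from 9 lists with 111 genes past the filter. Of these 111, the FGF10 signal was 1.5-fold or more above the control for 6 and below it for 3, which is 5.41% and 2.70% of them. The same shares over all genes were 5.41% and 4.86%. Upstream of ATF4, 0 of 8 genes for eIF2 kinases, their regulators and the phosphatase subunits were past 1.5-fold on their brightest probe sets. The median was -0.01. Other passing probe sets reached -0.82 for Impact and 0.72 for Eif2ak2, both in this list. The count of lower genes in this list was 0 in 10 of 12 alternative settings. Eif2ak4, which encodes the amino acid sensor GCN2, had a signal of 499.1 in the FGF10 sample and 392.9 in the control (0.31). Eif2ak3, which encodes PERK, had 637.2 in the FGF10 sample and 677.5 in the control (-0.12). The ratio of Ppp1r15a, an ATF4 pathway gene whose product GADD34 removes the eIF2 phosphate, was -0.01.

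Among ATF and C/EBP partners, 1 of 8 genes was past 1.5-fold on its brightest probe set, downward, and the median was -0.11. Atf2 was at 0.07 on its brightest probe set, but another passing one was at 1.07. The count of lower genes in this list ran from 0 to 3 over the settings tried. The lower gene was Cebpd, with a signal of 99.8 in the FGF10 sample and 199.3 in the control (-1.03), on 1 passing probe set that was dim. Atf3 and Atf5, both stress-induced ATF family genes, were at -0.22 and -0.18. Cebpg, a binding partner of ATF4, was at 0.17, and Cebpb was at -0.17 on its brighter probe set and 0.19 on the other. Nupr1, a stress-induced cofactor gene, was below the filter, with its brighter probe set at 20.9 in the FGF10 sample and 97.2 in the control.

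In serine, glycine and one-carbon metabolism, 0 of 8 genes beside the members were past 1.5-fold on their brightest probe sets. Their median was -0.05. Another passing probe set of Mthfd1 reached 0.64. Psph, the phosphatase that completes serine synthesis after Phgdh and Psat1, had a signal of 1289.9 in the FGF10 sample and 1836.9 in the control, a ratio of -0.54. All 3 enzymes of that route therefore had lower signals in the FGF10 sample, none past 1.5-fold. Mthfd2, a mitochondrial folate enzyme gene and a known ATF4 target, was at -0.27 and -0.50 on its 2 probe sets. Shmt2, which converts serine to glycine in mitochondria, had a ratio of 0.17 on the brightest of 4 passing probe sets, which ran from -1.13 to 0.22.

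Of 14 genes for other amino acid enzymes, 1 was past 1.5-fold upward and 1 downward on their brightest probe sets. The median ratio was -0.18. Another passing probe set of Gpt2 reached 0.69. Pck2, the mitochondrial phosphoenolpyruvate carboxykinase gene and a known ATF4 target, had a signal of 460.6 in the FGF10 sample and 248.9 in the control (0.85). Gclm, a subunit gene of the enzyme that begins glutathione synthesis, had 2675.6 in the FGF10 sample and 3926.5 in the control (-0.59), and its other probe set was at -0.58. Gclm was only just past 1.5-fold, and the count of lower genes in this list was 0 in 10 of 12 alternative settings. Chac2, the paralog of Chac1, was at 0.17.

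The genes for charging and importing amino acids that passed the filter were within 1.5-fold on their brightest probe sets. All 19 cytosolic tRNA synthetase genes past the filter lay between -0.45 and 0.29, with a median of -0.08. All 10 amino acid transporter genes past the filter lay between -0.55 and 0.08, with a median of -0.17. Of these 10, 9 had a negative ratio, as did 53.5% of all genes that passed the filter. Other passing probe sets reached -0.61 for Slc7a1 and -0.67 for Slc6a9. The count of lower transporter genes was 0 in 10 of 12 alternative settings and at most 2. Slc7a11, the cystine carrier gene, had a signal of 15.1 in the FGF10 sample and 71.4 in the control on its brighter probe set, both under the filter value. The endoplasmic reticulum stress list had 0 of 20 genes past 1.5-fold, a range of -0.42 to 0.22 and a median of -0.06. Its chaperone gene Hspa5 had ratios of -0.26, -0.20 and -0.49 on its 3 probe sets, from brightest to dimmest. For the brighter ones the medians of probe sets of like signal were -0.22 and -0.19. They stood at the 40.25th and 45.55th percentiles, so their negative ratios are ordinary at that brightness. Only the dimmest, of the _x_at type, stood low, at the 3.15th percentile with a like-signal median of 0.03.

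The list of mTORC1 restraint and stress regulators held most of the higher genes. It has 16 genes past the filter, 4 of them 1.5-fold higher and 0 lower on their brightest probe sets, and its median ratio was 0.14. Over all genes, 5.41% were higher and 4.86% lower. This list, like the others, was chosen with earlier results of these data known. Other passing probe sets reached -0.63 for Ddit4l and 0.62 for Depdc5. With the mean over a gene's probe sets 2 of the 16 were higher, and at 2-fold 1 was. Ddit4, an mTORC1 inhibitor gene that responds to hypoxia and to ATF4, had a signal of 5179.6 in the FGF10 sample and 1957.6 in the control (1.37). Sesn3 had 1055.8 in the FGF10 sample and 572.3 in the control (0.85), with 0.70 on its other probe set. Sesn1 had ratios of 0.44, 0.09 and 0.04 on its 3 passing probe sets. Sesn2 thus had negative ratios and Sesn3 positive ones, while Sesn1, at 0.09 and 0.04 on its dimmer passing probe sets, has no clear direction.

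Stc2, a secreted glycoprotein gene known as an ATF4 target, was at 0.76, 0.72 and 0.15 on its 3 probe sets. Tsc1, a subunit gene of the complex that inhibits Rheb, was at 0.68, with 0.26 on its other probe set. The Trib3 paralogs Trib1 and Trib2 were at 0.22 and 0.57, and both passing probe sets of Trib2 were positive.

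Among 8 lipoprotein receptor and reelin pathway genes, 1 was past 1.5-fold upward and 1 downward, and the median ratio was 0.04. Lrp6, a Wnt co-receptor gene, was at 0.59, just past 1.5-fold, and at 0.30 on its other probe set. The count of higher genes in this list was 0 in 4 of 12 alternative settings. Lrp2, the megalin gene of visceral endoderm, had a signal of 1104 in the FGF10 sample and 1874.5 in the control (-0.80). Lrp8, which encodes the other reelin receptor and is the closest relative of Vldlr in this list, was at 0.13, -0.43 and 0.90 on its 3 probe sets. The Vldlr ratio of 1.78 was above that of every other gene in the 9 lists, the next being the 1.37 of Ddit4.

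**Figure D4:**
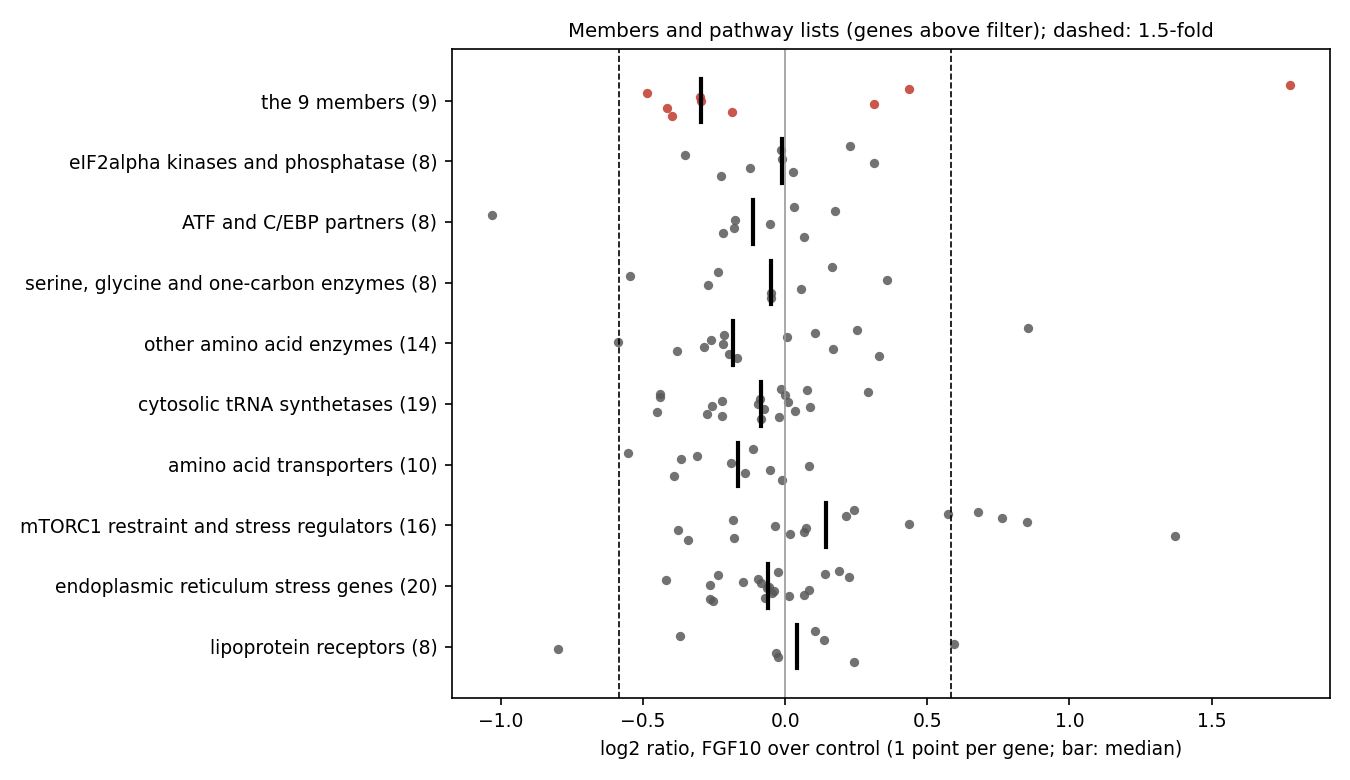
log2 ratio (FGF10 over control) of each gene past the signal filter in the 9 members (red) and 9 related lists (grey), with black bars at the medians and dashed lines at 1.5-fold. The member median is -0.30, the list medians run from -0.18 to 0.14, and Vldlr is the point farthest to the right.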

How the data were processed

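Total RNA from 1 FGF10 and 1 control sample was labelled with biotin and read on 1 Affymetrix array each. The authors deposited signal intensity values made with MAS5, per the submitters' processing notes, with version and settings not given in the sources used here. The mean of each array without its lowest and highest 2% is 500, so a ratio is relative to the rest of the array. Detection calls were not used here, and the number of arrays limits the precision.

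The platform annotation gave each probe set its gene, and a probe set with more than 1 gene, or with no gene, entered no gene count. Ratios were centred by 0.034, the median over the 22524 probe sets past the filter. No genome build is named for the arrays, and coordinates belong to the RefSeq promoter table. List symbols were matched through the RefSeq gene table (GRCm38.p6). Python 3.11.15, numpy 2.4.6, pandas 2.3.3 and statsmodels 0.14.6 were used, and the procedure was tested on simulated data. Named genes are all member probe sets, up to 4 genes of each list past 1.5-fold whose probe sets share a sign, and a fixed set always given. Members and lists were chosen with earlier results of these data known. Alternatives changed the centring, normalization, offset, filter, probe set choice and threshold. The spread between probe sets of a gene is the standard deviation of the difference between its 2 brightest, divided by the square root of 2.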

Additional observations from a re-analysis of the deposited data

How the results depend on the processing

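Vldlr stayed past 1.5-fold in all 10 alternatives that measured it (1.21 to 1.81), and no other member passed 1.5-fold in any. Asns (-0.41 to -0.18), Psat1 (-0.39 to -0.20), Phgdh (-0.30 to -0.20), Chac1 (-0.45 to -0.35), Sesn2 (-0.54 to -0.35) and Ddit3 (0.26 to 0.35) kept their sign. Atf4 changed sign in 1 alternative and Trib3 in 2, each time through another probe set. Chac1 and Ddit3 have 1 passing probe set each, so a change of probe set could not alter their sign. The member median ran from -0.30 to -0.18 over 13 alternatives. The count of higher members was 0 with the filter at the 75th percentile, where only 4 members were left and Vldlr was not among them, and 2 with each passing probe set as 1 value, both of them Vldlr. That alternative and the median without Vldlr were chosen after seeing the data. The pathway list genes counted as higher numbered 3 with the mean over probe sets and 1 at 2-fold. Those counted as lower numbered 6 with no signal filter, 1 at the 75th percentile, 6 with second brightest probe sets and 1 at 2-fold. Over all genes, 602 were higher and 540 lower, against 2516 and 2895 with no filter, 236 and 94 at the 75th percentile, and 147 and 144 at 2-fold. The spread between probe sets of a gene was 0.27 in log2 ratio over 5213 genes, 0.38 in the dimmest of 4 equal groups and 0.14 in the brightest. It covers error within these arrays and not variation between cultures. No paired analysis was possible because each group has 1 sample.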

Other observations

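The letters TGATGNAA were also read across all genes that passed the filter and have a RefSeq promoter window. Of 9034 such genes, 232 hold them in at least 1 window, among them Asns, Chac1, Trib3 and Vldlr. In the FGF10 sample 11 of the 232 (4.74%) were past 1.5-fold upward and 20 (8.62%) downward. Of the 8802 genes without the letters, 5.15% were higher and 4.58% lower. The median ratio was -0.05 with the letters and -0.03 without them. These shares describe 1 pair of arrays and were not tested.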
